A study of Mus musculus with 9 samples.

Results

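Ion channels are proteins that let ions cross a membrane, and the genes described here are those of the potassium, calcium, chloride, GABA-A, TRP, P2X and voltage-gated sodium channel families. They were found by gene symbol, as every symbol on the array that begins with Kcn, Cacn, Clcn, Clca, Gabr, Trpv, Trpm, Trpc, P2rx or Scn and goes on as the family names do. The rule gave 188 symbols, of which 165 had a value that differed between arrays and were tested, among 18856 genes tested in all. For the other 23 symbols the 9 arrays held equal values. The names also took in a few proteins that are not channels, of which Trpc4ap, a protein that binds the channel TRPC4, is named below.

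The cells were HC11, a clone of the mouse mammary epithelial line COMMA-1D from BALB/c mice. HC11 cells were stably transfected either with FoxF1, a forkhead transcription factor, or with NFI-C2, a member of the nuclear factor I family. The study describes its NFI-C2 as a stable form, NFI-C2S. Both lines were compared with cells labelled as wild type, which the study's methods describe as carrying the empty vector. Each group was measured on 3 Affymetrix Mouse Gene 1.0 ST arrays of separately grown and harvested cells, all kept in the same medium with serum, insulin and EGF. The study's methods speak of RNA from 3 pools of expressing cells. The sources used here do not state whether the 3 cultures of a group came from separate transfections, so the spread between arrays is that of the cultures. Because a line was measured as total RNA, fewer cells that use a gene and less RNA per cell cannot be told apart.

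In an epithelium, channels on the apical and basal face set the membrane voltage and, together with pumps and carriers, the movement of salt, calcium and water. Potassium channels hold the voltage, chloride channels and exchangers follow it or work inside endosomes and lysosomes, and TRP and P2X channels open to heat, stretch, lipids or extracellular ATP and let calcium in. Voltage-gated sodium and calcium channels are best known from nerve and muscle, and many subunits of these families are expressed there and at low levels elsewhere. In the mammary gland calcium and salt transport change as the epithelium turns to milk secretion.

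A value below is log2 expression relative to the median of the 9 arrays for the same gene, as deposited. Such a value shows a difference between arrays and not how strongly the gene was expressed, so levels of different genes were not compared. A gene is said to have changed where the adjusted p of the limma fit over all genes was under 0.05, and a difference is given in log2 units ± its standard error with n = 3 arrays a group.

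A count of such changes is read against the same count over all genes. With FoxF1, 20 of the 165 ion channel genes were higher than in wild type cells and 15 were lower, or 12.1% and 9.09% of them, where 20.8% and 19.1% of all genes were. With NFI-C2, 8 were higher and 10 were lower, or 4.85% and 6.06%, where 9.17% and 12.5% of all genes were. In the direct comparison of FoxF1 cells with NFI-C2 cells, 17 were higher and 16 were lower, against 23.5% and 19.6% of all genes. In either direction 21.2%, 10.9% and 20% of the ion channel genes passed the test in these comparisons, where 39.9%, 21.6% and 43.1% of all genes did. The share of ion channel genes called was below that of all genes in each of these counts, but this turns for falls with NFI-C2 where a change of 1.5-fold is also asked for (4.85% against 2.72%). No difference in share was tested. Both comparisons with wild type cells used the same 3 wild type arrays.

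Most of the genes barely moved. The median size of the difference from wild type cells was 0.03 both with FoxF1 and with NFI-C2, where over all genes it was 0.12 and 0.07. In neither comparison with wild type cells did 127 of the 165 genes pass the test, and among these the largest difference with NFI-C2 was -0.27 (Clca4). For 14804 of all 18856 genes the lowest value was not shared by 2 or more arrays. Such ties were more common among the ion channel genes, where 78 of the 165 had exactly tied lowest values. Among the 127 genes that passed in neither comparison 74 had them. Whether a change below the shared value could be seen in tied genes is not known. A shared value was not always the lowest, since in Kcnj8 the second wild type array read -0.14 and every other array 0.00. The changes were carried by few genes, and several of these were among the most changed genes on the array. Gabrp had the 8th lowest difference of the 18856 genes and Scn3a the 14th highest with FoxF1, and Trpv6 had the 8th lowest with NFI-C2.

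**Figure D1:**
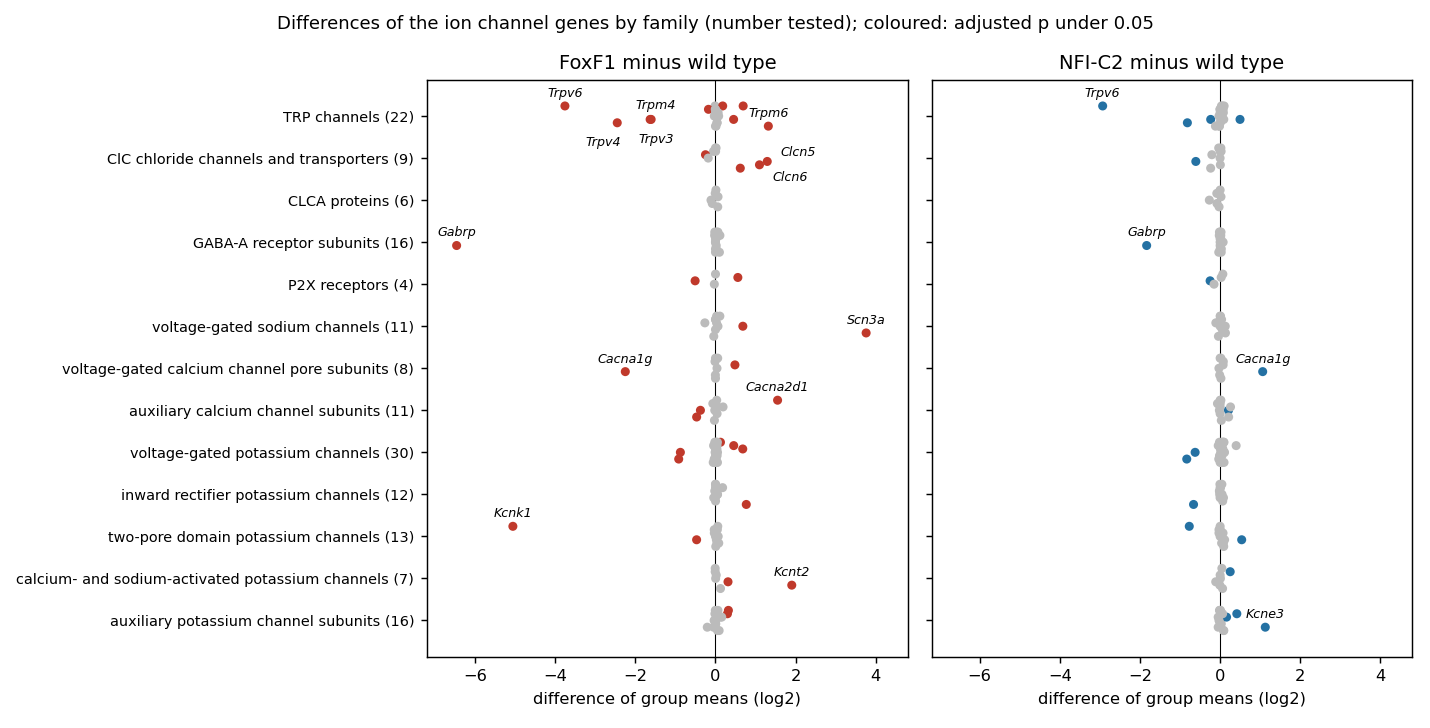
Difference of group means from wild type cells (log2) for each of the 165 tested ion channel genes, in rows by family with the number tested, for FoxF1 (left) and NFI-C2 (right). Each point is a gene, grey points did not pass the test, and genes that passed with a difference of 1 or more are named. Most points lie near 0, with Gabrp at -6.46 and Scn3a at 3.76 at the ends of the FoxF1 panel and Trpv6 at -2.93 at the low end of the NFI-C2 panel.

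The promoters of 5 genes are shown because the transfected factors bind DNA. Gabrp, Kcnk1 and Trpv6 had the largest falls with FoxF1. Clcn5 and Kcnj2 changed in opposite directions in the lines, as did other genes whose promoters are not shown. Among those others, no promoter was held for Cacna1g. The sequences are the 250 bases before the annotated start, from RefSeq with the build GRCm38.p6, written 5′ to 3′ on the strand of the gene. Capitals mark TTGGC, the core motif of nuclear factor I sites, or TGTTTA, a core of forkhead sites, on either strand (GCCAA and TAAACA).
Gabrp, chr11:33578958-33579207 (- strand): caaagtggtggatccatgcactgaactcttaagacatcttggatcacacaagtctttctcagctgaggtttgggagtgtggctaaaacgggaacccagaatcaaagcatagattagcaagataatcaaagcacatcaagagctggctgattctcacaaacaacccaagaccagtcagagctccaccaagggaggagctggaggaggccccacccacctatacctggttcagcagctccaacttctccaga
Kcnk1, chr8:125994852-125995101 (+ strand): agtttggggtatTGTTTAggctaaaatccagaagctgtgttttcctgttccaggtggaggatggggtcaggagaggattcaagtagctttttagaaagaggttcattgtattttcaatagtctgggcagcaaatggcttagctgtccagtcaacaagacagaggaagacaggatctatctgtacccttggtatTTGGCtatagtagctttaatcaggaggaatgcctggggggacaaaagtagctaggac
Trpv6, chr6:41636406-41636655 (- strand): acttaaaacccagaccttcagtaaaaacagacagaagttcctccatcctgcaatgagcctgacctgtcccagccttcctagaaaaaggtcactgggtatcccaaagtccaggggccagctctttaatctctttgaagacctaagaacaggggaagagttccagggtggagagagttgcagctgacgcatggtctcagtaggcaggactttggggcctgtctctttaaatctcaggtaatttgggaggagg
Clcn5 start 1, chrX:7319359-7319608 (- strand): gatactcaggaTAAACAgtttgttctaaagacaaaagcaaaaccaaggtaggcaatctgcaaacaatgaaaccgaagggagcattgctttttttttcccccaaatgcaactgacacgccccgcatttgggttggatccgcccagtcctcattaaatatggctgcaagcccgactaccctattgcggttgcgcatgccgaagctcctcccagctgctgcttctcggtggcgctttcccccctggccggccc
Clcn5 start 2, chrX:7188715-7188964 (- strand): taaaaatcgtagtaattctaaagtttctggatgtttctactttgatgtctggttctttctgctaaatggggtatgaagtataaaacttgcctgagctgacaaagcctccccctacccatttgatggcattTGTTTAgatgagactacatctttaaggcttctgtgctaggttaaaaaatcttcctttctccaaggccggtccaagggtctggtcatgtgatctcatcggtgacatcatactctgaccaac
Kcnj2, chr11:111065914-111066163 (+ strand): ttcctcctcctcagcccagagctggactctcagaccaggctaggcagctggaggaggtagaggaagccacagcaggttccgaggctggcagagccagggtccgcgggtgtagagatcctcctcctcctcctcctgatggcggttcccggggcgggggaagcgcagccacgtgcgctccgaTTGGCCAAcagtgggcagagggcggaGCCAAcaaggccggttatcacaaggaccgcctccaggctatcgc
Gabrp and Trpv6 hold neither motif in this window. Kcnk1 holds 1 of each, both Clcn5 promoters hold 1 forkhead core, and Kcnj2 holds 3 TTGGC motifs, of which 2 overlap as TTGGCCAA. The Kcnj2 window has 65.6% G or C and 14 CpG, and the Kcnk1 window 44.4% and 0. Both motifs are short and common, since 41.5% of the 32851 mouse promoters of this length hold TTGGC and 12% hold TGTTTA. Of 38 ion channel genes that changed with FoxF1 or NFI-C2, 34 had a promoter in the table, and 14 of these hold TTGGC and 4 hold TGTTTA. A match is a run of letters and was not tested for binding.

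Gabrp encodes the π subunit of GABA-A receptors, a chloride channel subunit known from epithelia such as uterus and breast rather than from brain. Its probes lie at chr11:33450781-33478957 in the file's positions, which are those of the build NCBIM37. The 3 wild type arrays read 1.73, 1.80 and 1.86, the NFI-C2 arrays 0.00, -0.14 and 0.03, and the FoxF1 arrays -4.64, -4.67 and -4.69. The 3 groups were far apart and did not overlap. Gabrp was 88.1-fold below wild type cells with FoxF1 (-6.46 ± 0.05, adjusted p = 4.9e-10) and 3.57-fold below them with NFI-C2 (-1.83 ± 0.05, adjusted p = 1.1e-06). It was also lower in FoxF1 cells than in NFI-C2 cells, by 24.7-fold. Of the 16 tested GABA-A subunits it was the only one that changed in any of the 3 comparisons, and the other 15 include the subunits of the receptors of the brain.

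Kcnk1 encodes TWIK-1, a two-pore domain potassium channel of the resting membrane, with probes at chr8:128519070-128554585. The wild type arrays read 0.78, 0.82 and 0.72, all NFI-C2 arrays 0.00, and the FoxF1 arrays -4.16, -4.18 and -4.51. Kcnk1 was 33.3-fold lower with FoxF1 (-5.06 ± 0.09, adjusted p = 1.3e-08) and 1.71-fold lower with NFI-C2 (-0.77 ± 0.09, adjusted p = 0.00073). Of the other 12 tested genes of the two-pore family Kcnk7 alone changed in these comparisons, and it is described with the genes that moved in opposite directions.

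Trpv6 encodes an epithelial calcium channel that is highly selective for calcium, with probes at chr6:41570623-41586334. The wild type arrays read 2.94, 2.83 and 3.00, the NFI-C2 arrays 0.00, -0.02 and 0.00, and the FoxF1 arrays -0.73, -0.82 and -0.96. Trpv6 was high in wild type cells alone, 13.5-fold lower with FoxF1 (-3.76 ± 0.06, adjusted p = 1.2e-08) and 7.63-fold lower with NFI-C2 (-2.93 ± 0.06, adjusted p = 3.3e-07). The FoxF1 arrays were lower than the NFI-C2 arrays by 0.83 ± 0.06 (adjusted p = 2.4e-05). Trpv5, the nearest relative of Trpv6, read 0.00 on 8 of 9 arrays and did not change in any comparison.

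Trpv4, a cation channel that opens to cell swelling, stretch and warmth, had the same order of groups. Its wild type arrays read 0.75, 0.85 and 0.78, its NFI-C2 arrays 0.00, -0.08 and 0.00, and its FoxF1 arrays -1.71, -1.64 and -1.63. It was 5.47-fold lower with FoxF1 (-2.45 ± 0.04, adjusted p = 6.4e-09) and 1.76-fold lower with NFI-C2 (-0.82 ± 0.04, adjusted p = 9e-06), and FoxF1 cells were below NFI-C2 cells (-1.63, adjusted p = 3.1e-08).

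A pair of voltage-gated potassium channels of the shaker family was lower in each line too. Kcna6 (Kv1.6) read 0.82, 0.81 and 0.87 in wild type cells, 0.00 on all 3 NFI-C2 arrays and -0.13, 0.00 and -0.13 with FoxF1. The FoxF1 difference was -0.92 ± 0.04 (adjusted p = 7.4e-07) and the NFI-C2 difference -0.83 ± 0.04 (adjusted p = 9.2e-06), and the difference between the lines did not pass the test (-0.08, adjusted p = 0.11). As 2 arrays of Kcna6 shared the lowest value, its FoxF1 difference may be cut short. Kcna4 (Kv1.4) read 0.41, 0.74 and 0.64 in wild type cells, -0.07, -0.07 and 0.06 with NFI-C2 and -0.48, 0.00 and -0.36 with FoxF1. Its differences were -0.88 ± 0.13 (adjusted p = 0.0011) and -0.62 ± 0.13 (adjusted p = 0.013), and its FoxF1 and NFI-C2 arrays overlapped.

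P2rx4, a channel gated by extracellular ATP, was lower by less. The wild type arrays read 0.29, 0.29 and 0.20, the FoxF1 arrays -0.07, -0.29 and -0.37, and the NFI-C2 arrays 0.00, -0.03 and 0.06. The FoxF1 difference was -0.51 ± 0.07 (adjusted p = 0.00089). The NFI-C2 difference of -0.25 ± 0.07 was just inside the threshold (adjusted p = 0.0496), and it was lost in 7 of the 9 fits that left out 1 array, all but those without the first or the third FoxF1 array, with adjusted p up to 0.14. P2rx3, the ATP receptor of sensory nerves, went the other way with FoxF1, where its arrays read 0.56, 0.39 and 0.54 and the other arrays between -0.11 and 0.00. It was 1.47-fold higher (0.56 ± 0.05, adjusted p = 7e-05).

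**Figure D2:**
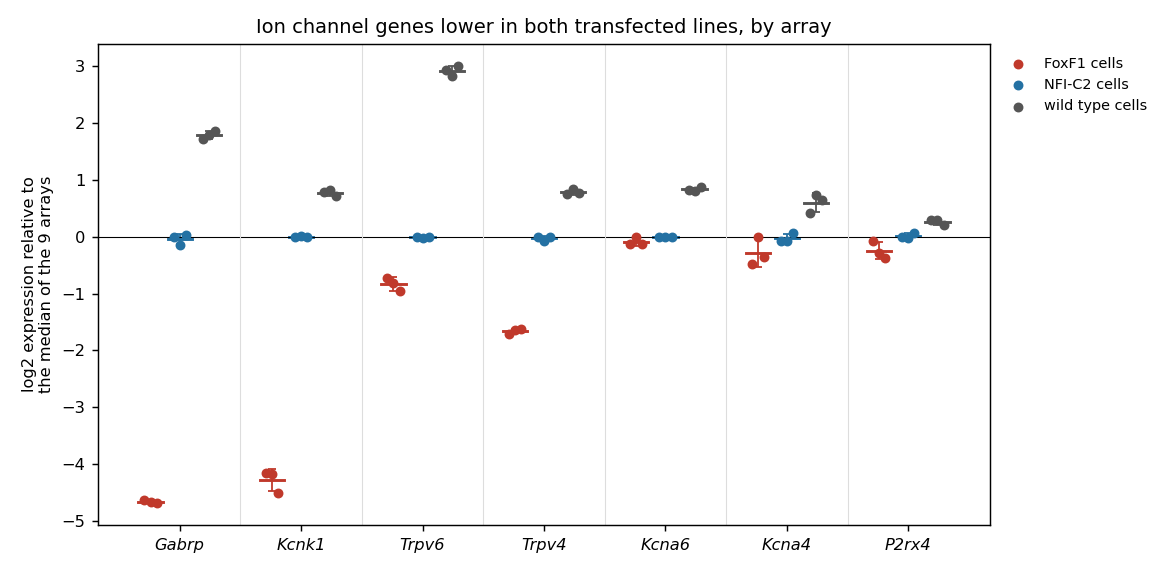
Values of the 7 ion channel genes that were lower than in wild type cells in each transfected line, by array. The vertical axis is log2 expression relative to the median of the 9 arrays, points are arrays, and bars are group means with SD (n = 3). The wild type arrays (grey) lie above 0 for every gene, and the FoxF1 arrays (red) of Gabrp and Kcnk1 lie below -4.

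Genes with known roles in mammary luminal and basal cells moved in the same arrays. Of 13 tested luminal markers 8 were lower and 1 was higher with FoxF1, and 8 were lower and 0 higher with NFI-C2, with Krt18, a keratin of luminal cells, at -4.38 and -3.21. Of 15 basal markers 8 were lower and 4 higher with FoxF1, among them Krt5 at -7.35, and 0 were lower and 6 higher with NFI-C2. Of 11 fibroblast markers 7 were higher and 1 lower with FoxF1, and 2 were higher and 1 lower with NFI-C2. The lower one with FoxF1 was Postn at -5.55, and the largest rise was that of Pdgfrb at 3.69. The luminal, basal and fibroblast shares called were 69.2%, 80% and 72.7% with FoxF1, where 39.9% of all genes were called. With NFI-C2 they were 61.5%, 40% and 27.3%, where 21.6% of all genes were. Because values were centred gene by gene, these lists do not show which cell type a line was, and their part in the falls of Gabrp, Kcnk1, Trpv6 and Trpv4 was not tested. The genes of the transfected factors did not pass the test in their own lines. Foxf1a read 0.32, 0.12 and 0.09 on the FoxF1 arrays and 0.01, 0.00 and -0.07 on the wild type arrays, without overlap (0.20 ± 0.14, adjusted p = 0.35), and Nfic was at -0.04 ± 0.07 in NFI-C2 cells (adjusted p = 0.76). Foxf1a was lower in NFI-C2 cells (-1.24 ± 0.14, adjusted p = 0.00078), and Nfic was lower in FoxF1 cells (-0.26 ± 0.07, adjusted p = 0.023). The study also measured FoxF1 mRNA in parental and transfected HC11 lines by real-time PCR, and reports high LOX expression where FoxF1 was high. Those PCR values were not used here. Whether these probes read the transfected constructs was not tested.

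A further 7 genes differed from wild type cells in opposite directions in the lines, and for each the difference between FoxF1 and NFI-C2 cells passed the test. The largest belonged to Cacna1g, the pore subunit of the T-type calcium channel Cav3.1, which opens near the resting voltage (chr11:94269685-94335351). Its wild type arrays read -0.04, 0.00 and 0.00, its FoxF1 arrays -2.59, -1.85 and -2.34 and its NFI-C2 arrays 1.24, 0.91 and 1.00. Cacna1g was 4.76-fold lower with FoxF1 (-2.25 ± 0.18, adjusted p = 2.9e-05) and 2.09-fold higher with NFI-C2 (1.06 ± 0.18, adjusted p = 0.0044), so that FoxF1 cells were 9.94-fold below NFI-C2 cells (-3.31 ± 0.18, adjusted p = 2.8e-06). Cacna1h, another T-type gene, shared its lowest value on 7 arrays and did not change.

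Trpv3, a warmth-sensitive channel of keratinocytes, read -1.75, -1.56 and -1.50 with FoxF1, 0.69, 0.39 and 0.42 with NFI-C2 and between -0.01 and 0.02 in wild type cells. It fell by 1.61 with FoxF1 (SE 0.09, adjusted p = 4.9e-06) and rose by 0.50 with NFI-C2 (SE 0.09, adjusted p = 0.007). Its relatives Trpv4 and Trpv6, as above, were lower in each line.

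Kcnk7 and Cacnb1 moved by less in the same directions. Kcnk7, a two-pore family member that gives no current of its own in expression systems, read -0.37, -0.64 and -0.40 with FoxF1, 0.69, 0.37 and 0.57 with NFI-C2 and 0.03, -0.02 and 0.00 in wild type cells. Its differences were -0.47 ± 0.10 (adjusted p = 0.0051) and 0.54 ± 0.10 (adjusted p = 0.0059). Cacnb1, a cytoplasmic β subunit that brings calcium channels to the membrane, read -0.30, -0.31 and -0.49 with FoxF1, 0.25, 0.16 and 0.24 with NFI-C2 and 0.00, 0.05 and -0.03 in wild type cells. Its FoxF1 difference was -0.38 ± 0.05 (adjusted p = 0.00089). Its NFI-C2 difference of 0.21 ± 0.05 (adjusted p = 0.032) was lost in 5 of the 9 fits without 1 array, those without the first or the third NFI-C2 array or any wild type array, with adjusted p up to 0.097.

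Clcn5, Kcnj2 and Trpc4ap went up with FoxF1 and down with NFI-C2. Clcn5 encodes ClC-5, a chloride-proton exchanger of endosomes (chrX:6736599-6765840). It read 1.17, 1.34 and 1.29 with FoxF1, -0.58, -0.66 and -0.66 with NFI-C2 and -0.10, 0.00 and 0.02 in wild type cells, with no overlap. It was 2.45-fold higher with FoxF1 (1.29 ± 0.05, adjusted p = 7.6e-07) and 1.52-fold lower with NFI-C2 (-0.61 ± 0.05, adjusted p = 0.00019).

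Kcnj2 encodes Kir2.1, an inward rectifier that holds the resting voltage, and was the only one of 12 tested genes of its family that changed. It read 0.93, 1.00 and 0.41 with FoxF1, -0.50, -0.69 and -0.77 with NFI-C2 and -0.02, 0.00 and 0.05 in wild type cells. The FoxF1 array at 0.41 was lower than the other FoxF1 arrays but above every wild type array. The FoxF1 difference was 0.77 ± 0.15 (adjusted p = 0.0043), and after quantile normalization it did not pass the test. That step gives all arrays the same distribution, though the values spread most widely on the FoxF1 arrays. A call lost under it, here or below, cannot be told apart from an effect of this rescaling. The NFI-C2 difference was -0.66 ± 0.15 (adjusted p = 0.017) and was lost in 4 of 9 fits, those without the second or the third NFI-C2 array or the second or the third wild type array, with adjusted p up to 0.061. Trpc4ap read 0.41, 0.43 and 0.44 with FoxF1, between -0.27 and -0.25 with NFI-C2 and -0.15, 0.00 and 0.07 in wild type cells. Its differences were 0.45 ± 0.05 (adjusted p = 0.00021) and -0.24 ± 0.05 (adjusted p = 0.013), the second of which was lost without the second wild type array (adjusted p = 0.051) and both of which were lost after quantile normalization.

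**Figure D3:**
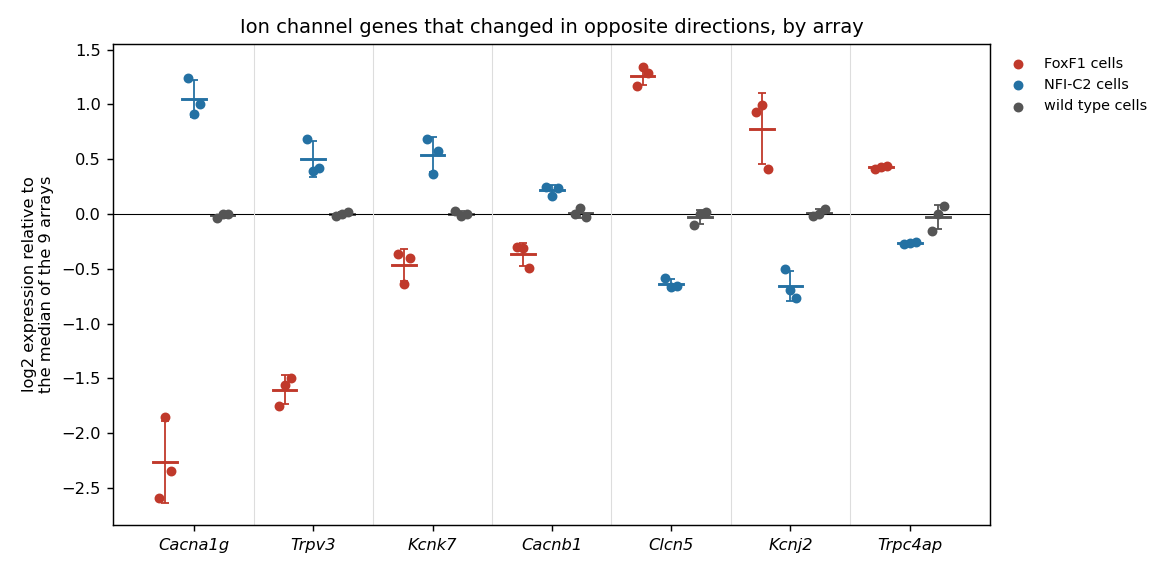
Values of the 7 ion channel genes that differed from wild type cells in opposite directions in FoxF1 and NFI-C2 cells, by array, as log2 expression relative to the median of the 9 arrays (points are arrays, bars are group means with SD, n = 3). The wild type arrays lie near 0, the FoxF1 arrays of Cacna1g, Trpv3, Kcnk7 and Cacnb1 lie below them, and those of Clcn5, Kcnj2 and Trpc4ap lie above them.

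Other genes changed with FoxF1 and did not pass the test with NFI-C2. The largest rise was that of Scn3a, the pore subunit of the sodium channel Nav1.3, which is known from the developing brain (chr2:65331182-65374733). Its FoxF1 arrays read 3.66, 3.87 and 3.60, its NFI-C2 arrays 0.00, -0.01 and 0.25 and its wild type arrays -0.10, -0.03 and -0.02. Scn3a was 13.6-fold above wild type cells with FoxF1 (3.76 ± 0.09, adjusted p = 5.3e-08) and 12.4-fold above NFI-C2 cells (adjusted p = 5.6e-08). The NFI-C2 difference was 0.13 ± 0.09 (adjusted p = 0.40). A separate set of 32 probes that the file gives to Scn3a, and the platform annotation to Scn3a and Scn1a, read 2.11, 2.05 and 1.98 with FoxF1 and between -0.04 and 0.00 on the other 6 arrays.

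Scn2a1, now named Scn2a (Nav1.2), was also called higher with FoxF1, but most of the difference comes from 1 of its 15 probe sets. The set with most probes (28, at chr2:65520560-65520651) read 0.67, 0.90 and 0.48 with FoxF1 and 0.00 on the other 6 arrays, a difference of 0.68 ± 0.09 (adjusted p = 0.00055). The platform annotation gives this set to Scn2a, Scn9a and Scn3a together. The other 14 sets of Scn2a1, of which 2 did not vary, differed by 0 to 0.347, and no array read above 0.46. The mean over all sets that varied, the shared set of 28 probes among them, was higher by 0.129 (adjusted p = 0.00071). This much smaller difference still passed the test, but it is not independent of the shared set. Signal of Scn2a1 in that set cannot be told apart from that of Scn3a, and the size of the change of Scn2a1 is uncertain. The other 9 tested sodium channel genes, Scn9a among them (0.06 with FoxF1), did not pass the test in any comparison.

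**Figure D4:**
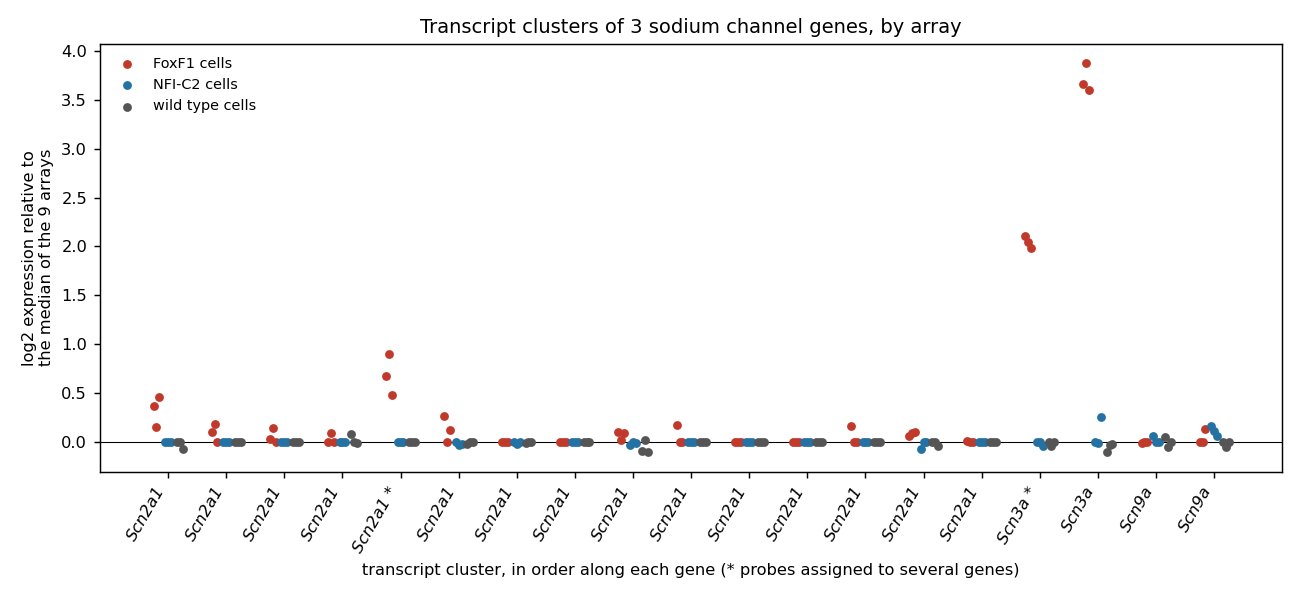
Values of each probe set (transcript cluster) of Scn2a1, Scn3a and Scn9a, all on chromosome 2, by array, as log2 expression relative to the median of the 9 arrays. Points are arrays, and an asterisk marks a set that the platform annotation gives to several genes. The FoxF1 arrays of both Scn3a sets read 1.98 or more, those of the shared Scn2a1 set read 0.48 to 0.90, and no array of the other Scn2a1 sets read above 0.46.

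Of 10 tested neuronal markers Tubb3, a neuronal tubulin, alone passed the test with FoxF1 (1.84 ± 0.10), and it was higher with NFI-C2 as well (0.50 ± 0.10). Of 11 muscle markers 3 were higher and 1 lower with FoxF1, and 0 were higher and 2 lower with NFI-C2. Tnnt2, cardiac troponin T, was at -2.83 with FoxF1 and -1.18 with NFI-C2. The rises with FoxF1 were those of Tnnc1 (0.535), Des (0.43) and Mef2c (0.23). The muscle shares called, 36.4% and 18.2%, were near the 39.9% and 21.6% of all genes, and the neuronal shares were 10% and 10%. The part of these genes in the rise of Scn3a was not tested.

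The rises with FoxF1 included channels of several other families. Kcnt2 encodes Slick, a potassium channel opened by sodium. It read 1.90, 2.01 and 1.80 with FoxF1 and between -0.02 and 0.00 on the other arrays, a 3.74-fold difference (1.90 ± 0.05, adjusted p = 7e-08). Cacna2d1, the α2δ1 subunit that carries calcium channels to the surface, read 1.48, 1.57 and 1.42 with FoxF1 and from -0.12 to 0.00 on the other 6 arrays, and was 2.93-fold higher (1.55 ± 0.05, adjusted p = 3.2e-07). Cacna1c, the pore of the L-type channel Cav1.2 with which Cacna2d1 can assemble, was higher by 0.49 ± 0.07 (adjusted p = 0.00061), with FoxF1 arrays at 0.49, 0.45 and 0.25 and the others between -0.18 and 0.00. The β subunit Cacnb3 went down (-0.47 ± 0.09, adjusted p = 0.0042) but did not pass after quantile normalization.

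Trpm6 and Trpm7 encode magnesium channels that carry a kinase domain, and both were higher with FoxF1. They were named in this comparison after their values were seen. Trpm6 read 1.20, 1.41 and 1.19 with FoxF1, -0.18, -0.27 and -0.06 with NFI-C2 and -0.17, 0.00 and 0.01 in wild type cells, a 2.5-fold difference (1.32 ± 0.08, adjusted p = 9.1e-06). Trpm7 read 0.49, 0.70 and 0.54 with FoxF1 and at most 0.01 elsewhere (0.69 ± 0.07, adjusted p = 0.00016). Trpm4, a channel for monovalent cations that calcium opens, fell instead. Its FoxF1 arrays read -1.52, -1.50 and -1.60, its NFI-C2 arrays 0.34, 0.00 and 0.19 and its wild type arrays -0.03, 0.09 and 0.20, so it was 3.1-fold lower with FoxF1 (-1.63 ± 0.09, adjusted p = 4.6e-06) and the NFI-C2 difference did not pass the test (0.09, adjusted p = 0.58).

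Among the intracellular chloride transporters Clcn6, of late endosomes, and Clcn7, of lysosomes, were higher with FoxF1 beside Clcn5. Clcn6 read 0.90, 1.21 and 0.96 with FoxF1, 0.00, -0.03 and -0.18 with NFI-C2 and -0.28, 0.00 and 0.06 in wild type cells (1.10 ± 0.11, adjusted p = 0.00013). Clcn7 read 0.48, 0.73 and 0.49, -0.27, -0.38 and -0.21, and -0.17, 0.01 and 0.00 in the same groups (0.62 ± 0.09, adjusted p = 0.00068). Clcn3, another endosomal exchanger, was lower by 0.25 (SE 0.06, adjusted p = 0.013), and its NFI-C2 difference of -0.21 fell just outside the threshold (adjusted p = 0.0508). Of the 9 tested ClC genes 3 were higher and 1 lower with FoxF1, and 1 was lower with NFI-C2. None of the 6 CLCA genes, secreted proteins once taken for chloride channels, changed in any comparison.

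Kcnh2, the hERG potassium channel of cardiac repolarization, read 0.76, 0.51 and 0.56 with FoxF1 and at most 0.00 on every other array (0.68 ± 0.07, adjusted p = 0.00012). Its relative Kcnh1 was higher by 0.46 ± 0.13 (adjusted p = 0.024), but its FoxF1 arrays at 0.00, 0.01 and 0.47 were uneven and the call was lost without any one of the 3 wild type arrays, with adjusted p up to 0.068. Kcnab1, a cytoplasmic β subunit of shaker channels, was higher by 0.32 ± 0.05 (adjusted p = 0.00081). The calcium-activated channel Kcnn4 was higher by 0.31 ± 0.10 (adjusted p = 0.0425), a call lost in 7 of 9 fits, all but those without the first FoxF1 or the third wild type array, with adjusted p up to 0.13. The remaining calls with FoxF1, named after their values were seen, were Trpc2 (-0.18, adjusted p = 0.012), Trpc7 (0.18, adjusted p = 0.036) and Kcng4 (0.12, adjusted p = 0.025). Of these Trpc7 was lost in 7 of 9 fits, all but those without the first FoxF1 or the second wild type array, and Kcng4 in 3, those without the second or the third FoxF1 or the second wild type array. Trpc2, Trpc7, Kcng4 and Kcnn4 did not pass after quantile normalization, and the platform annotation gives the probe set of Trpc2 to Xntrpc, Xndc1 and Trpc2 together.

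**Figure D5:**
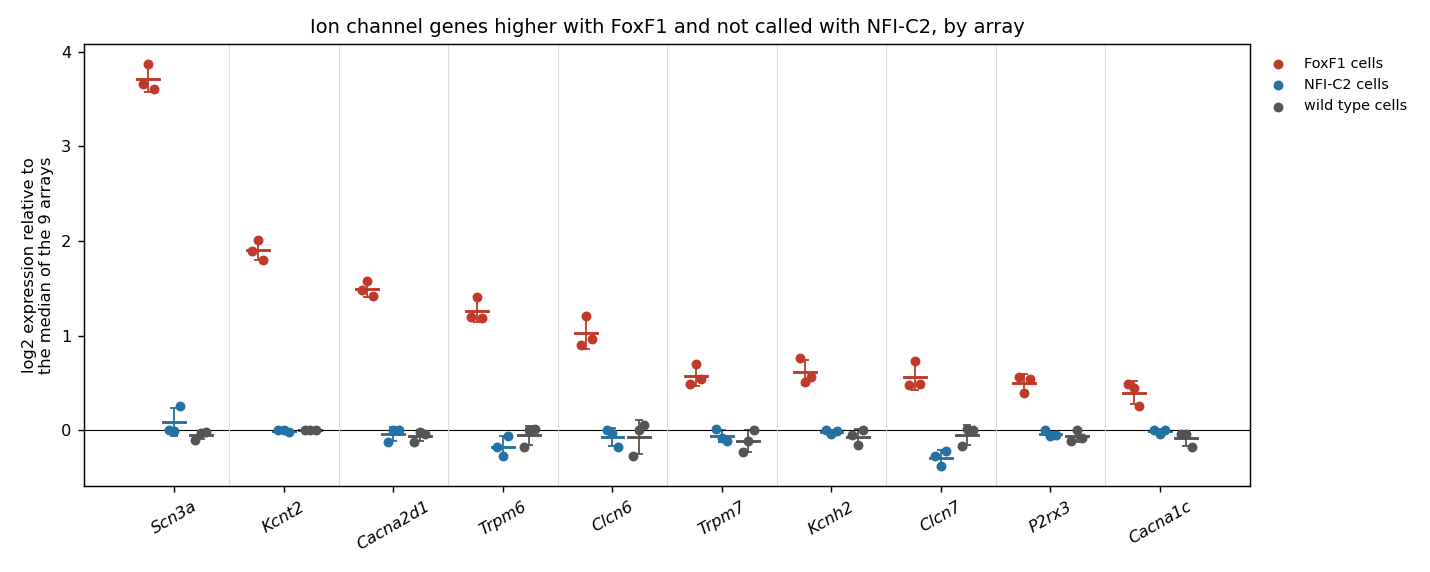
Values of the 10 ion channel genes with the largest rises in FoxF1 cells among those that did not pass the test in NFI-C2 cells, leaving out Scn2a1, by array, as log2 expression relative to the median of the 9 arrays (points are arrays, bars are group means with SD, n = 3). The 3 FoxF1 arrays of each gene lie above the other 6, from Scn3a between 3.60 and 3.87 down to Cacna1c between 0.25 and 0.49.

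Scn3a, Scn2a1, Kcnt2, Cacna2d1, Trpm6, Trpm7, Clcn6, Clcn7, Kcnh2, P2rx3, Cacna1c, Kcnab1 and Kcnn4 were also higher in FoxF1 cells than in NFI-C2 cells in the direct comparison, so for these 13 genes the difference between the lines itself passed the test, though those of Cacna1c and Kcnn4 did not pass after quantile normalization. For Kcng4, Kcnh1 and Trpc7 it did not. Among the falls, Trpm4 (-1.72, adjusted p = 2.9e-06), Cacnb3 and Trpc2 were lower in FoxF1 than in NFI-C2 cells, and Clcn3 did not pass the test (-0.04, adjusted p = 0.65). The direct comparison alone called Cacna1b, Clcn4-2 and Kcnab3, named after their values were seen, with differences of -0.09, -0.18 and 0.20. These 3 calls were each lost in 4 to 7 of the 9 fits without 1 array.

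With NFI-C2 the highest rise was that of Kcne3, a small β subunit that keeps the potassium channel Kcnq1 open in epithelia (chr7:107327207-107333379). It read 1.14, 0.96 and 1.28 with NFI-C2, 0.00, 0.04 and -0.04 in wild type cells and -0.13, -0.34 and -0.14 with FoxF1. Kcne3 was 2.18-fold higher with NFI-C2 (1.13 ± 0.09, adjusted p = 0.00013), and its FoxF1 difference of -0.20 did not pass the test (adjusted p = 0.11). The difference between the lines was -1.33 ± 0.09 (adjusted p = 9.5e-06). Its partner Kcnq1 shared its lowest value on 7 arrays and differed by 0.04 with FoxF1 and 0.01 with NFI-C2, neither of which passed the test.

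Kcnab2, another β subunit of shaker channels, was higher in each line. It read -0.27, -0.22 and -0.30 in wild type cells, 0.16, 0.18 and 0.12 with NFI-C2 and 0.13, -0.02 and 0.00 with FoxF1. Its differences were 0.42 ± 0.04 with NFI-C2 (adjusted p = 0.00053) and 0.30 ± 0.04 with FoxF1 (adjusted p = 0.001), and the lines did not differ beyond the threshold (-0.12, adjusted p = 0.069). Kcnn1, a small-conductance calcium-activated channel, and Kcnip3, a calcium-binding partner of Kv4 channels, were called higher with NFI-C2 by 0.25 ± 0.06 (adjusted p = 0.029) and 0.16 ± 0.04 (adjusted p = 0.031). Kcnn1 was lost in 5 of 9 fits, those without the second or the third NFI-C2 or any wild type array, and Kcnip3 in 5, those without any NFI-C2 array or the second or the third wild type array. The count of 8 rises with NFI-C2 was 5 without the second and without the third wild type array.

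By family, of 22 tested TRP genes 4 were higher, Trpc4ap among them, and 5 lower with FoxF1, and 1 was higher and 3 lower with NFI-C2. The shares called, 40.9% and 18.2%, were near the 39.9% and 21.6% of all genes. The ClC genes had 44.4% called with FoxF1 and the 4 tested P2X genes 50%, which is 2 genes. Of 30 voltage-gated potassium channel genes 3 were higher and 2 lower with FoxF1, and 0 were higher and 2 lower with NFI-C2. The auxiliary potassium channel subunits, 16 tested, had 2 higher and 0 lower, and 3 higher and 0 lower. Of 8 voltage-gated calcium channel pore genes 1 was higher and 1 lower, and 1 higher and 0 lower, while of 11 auxiliary calcium channel genes 1 was higher and 2 were lower, and 1 was higher and 0 lower.

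Some genes that work with the channels were also read. Of 22 tested genes of calcium handling 5 were higher and 5 lower with FoxF1, and 5 were higher and 2 lower with NFI-C2, or 45.5% and 31.8% called, where 39.9% and 21.6% of all genes were. The plasma membrane calcium pumps Atp2b4 and Atp2b1 fell by 1.34 ± 0.10 and 1.03 ± 0.07 with FoxF1, and Atp2b1 fell by 0.73 ± 0.07 with NFI-C2. Stim1, the calcium sensor of the endoplasmic reticulum, fell by 0.69 ± 0.05 with FoxF1 and rose by 0.37 ± 0.05 with NFI-C2, while the store-operated channel gene Orai2 rose by 0.75 ± 0.08 with NFI-C2.

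Of 24 tested genes of sodium, chloride and water transport 6 were higher and 8 lower with FoxF1, and 5 were higher and 8 lower with NFI-C2, or 58.3% and 54.2% called. Cftr, the chloride channel of secretory epithelia, was lower with FoxF1 (-1.75 ± 0.12, adjusted p = 1.8e-05) and with NFI-C2 (-1.24 ± 0.12, adjusted p = 0.00043). The water channel Aqp1 was higher with FoxF1 (2.82 ± 0.15, adjusted p = 3.2e-06). Of 13 sodium pump genes 0 were higher and 5 lower with FoxF1, with the regulator Fxyd3 at -4.76 ± 0.20, and 5 were higher and 2 lower with NFI-C2, or 38.5% and 53.8% called. The β subunit Atp1b1 fell in each line, by 1.59 ± 0.08 and 1.16 ± 0.08. Of 18 other cation channel genes 4 were higher and 4 lower with FoxF1, with Pkd1 at 0.70 ± 0.05, and 1 was higher and 2 were lower with NFI-C2, or 44.4% and 16.7% called.

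The size of the calls can be set against a fold. Of the 165 genes 11 were higher and 9 lower by 1.5-fold or more with FoxF1, or 6.67% and 5.45%, against 7.12% and 8.97% of all genes. With NFI-C2 2 were higher and 8 lower, or 1.21% and 4.85%, against 2.37% and 2.72%, so here the share of falls was above that of all genes. Between FoxF1 and NFI-C2 cells 12 were higher and 10 lower by that fold, or 7.27% and 6.06%, against 9.22% and 9.57%. The arrays of FoxF1 and wild type cells did not overlap for 40 of the 165 genes and those of NFI-C2 and wild type cells for 29, where 46% and 33.3% of all genes had no overlap. The arrays of FoxF1 and NFI-C2 cells did not overlap for 37 of them, against 47.8% of all genes. The standard deviation of the values over the 165 genes was 0.70 to 0.71 on the FoxF1 arrays, 0.157 to 0.178 on the NFI-C2 arrays and 0.295 to 0.304 on the wild type arrays, so arrays of a group were alike in their spread.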

How the data were processed

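RNA of 9 HC11 cultures was hybridised to Affymetrix Mouse Gene 1.0 ST arrays, and the authors processed the scans with RMA, whose version and settings are not given in the sources used here. The deposited values are on a log2 scale, and for all 28815 probe sets the median over the 9 arrays is 0. They therefore keep differences between arrays but no level of a gene. Intensities were not used here, so signal over background is unknown. The lowest value occurs on 2 or more arrays (tolerance 1e-06) in 8566 probe sets, and 2163 hold 9 equal values. A p-value sheet of the authors' own comparison was not used. The labels give Trizol and the methods a column kit for RNA.

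The symbol of a probe set was the first one in its gene assignment. A symbol was represented by its set with most probes, leaving out sets with 9 equal values, which gave 18856 genes. Group means were fitted in 1 model with limma 3.58.1 in R 4.3.3 (eBayes without trend, two-sided), and p-values were adjusted by Benjamini-Hochberg over all 18856 genes. The scripts were tested on simulated data. Precision is limited by having 3 arrays a group, at which exact permutation of 1 gene's values cannot give a p under 0.1. Positions are those of the file's own annotation, in the build NCBIM37. RefSeq tables (GRCm38.p6) gave promoters and current symbols, and 164 of the 165 genes matched by gene ID. Of these 8 have another symbol now, so the CLCA names here are older ones. Promoters were held for 126 of the 165. Tables were read with Python 3.11.15 and pandas 2.3.3.

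Named genes were, for each comparison with wild type cells, up to 4 of each family with the largest differences among those past the threshold whose arrays did not overlap. Added to these were up to 8 genes called in opposite directions, up to 12 called in the same direction by 1.5-fold or more, the 6 largest differences each way between the lines, subunits of the same complex, up to 4 of each list, and the transfected genes. Genes outside this rule are named as such, except that the difference between the lines is also given for genes named in a comparison with wild type cells. The members, gene lists and rules were chosen with earlier results of these data known. The alternatives were the mean of all sets of a symbol, a fit of the 2 groups compared, a robust prior, array medians, quantile normalization, genes without tied values, a replicate block, a fold criterion, and leaving out each array. The endothelial list (9 tested genes) had 1 higher and 1 lower with FoxF1 and 1 higher and 0 lower with NFI-C2. The immune list (7 tested) had 1 higher and 1 lower with FoxF1, and 0 higher and 1 lower with NFI-C2. In the endothelial list 22.2% and 11.1% were called, and in the immune list 28.6% and 14.3%. Of all genes 39.9% and 21.6% were. All other lists are given in the results. Some items are not reported here.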

Additional observations from a re-analysis of the deposited data

Results flagged for a closer look

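For 7 genes FoxF1 and NFI-C2 moved expression in opposite directions from wild type cells, and the direct comparison of the lines passed the limma test for each. The difference of FoxF1 from NFI-C2 cells was -3.31 for Cacna1g (effects of -2.25 and 1.06), -2.10 for Trpv3 (-1.61 and 0.50), -1.01 for Kcnk7 (-0.47 and 0.54) and -0.584 for Cacnb1 (-0.38 and 0.21), all on the log2 scale. It was 1.90 for Clcn5 (1.29 and -0.61), 1.43 for Kcnj2 (0.77 and -0.66) and 0.688 for Trpc4ap (0.45 and -0.24). The adjusted p of these differences ran from 9.1e-08 for Clcn5 to 0.00013 for Kcnj2. For each gene 3 of 3 arrays of each line lay on its own side of every wild type array. The NFI-C2 difference from wild type cells was lost in 5 of 9 fits without 1 array for Cacnb1, 4 for Kcnj2 and 1 for Trpc4ap. After quantile normalization the FoxF1 difference of Kcnj2 and both differences of Trpc4ap from wild type cells did not pass.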

How the results depend on the processing

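With a fold of 1.5 required besides the adjusted p, the ion channel genes called with FoxF1 were 11 higher and 9 lower, those called higher with NFI-C2 were 2, and those lower in FoxF1 than in NFI-C2 cells were 10. In a test against a change of 1.5-fold the counts were 6 higher and 8 lower with FoxF1, 1 and 4 with NFI-C2, and 7 and 9 for FoxF1 against NFI-C2. Leaving out 1 array gave 17 to 23 higher and 15 to 16 lower with FoxF1, 5 to 10 and 7 to 11 with NFI-C2, and 16 to 21 and 14 to 19 between the lines. The lowest count with NFI-C2, 5 higher, came without wild type replicate 2 and without wild type replicate 3. The other alternatives kept every count within 1.5 times. After seeing the data, a count was added without Trpc4ap and without genes whose probe set has several genes or none in the platform annotation. It gave 18 higher and 13 lower with FoxF1. Of 1454 recomputed values of single genes 1311 kept direction and call, 143 lost the call and 0 reversed. The test against a change of 1.5-fold ended 51 calls, quantile normalization 11, the fit of 2 groups 7 and the robust prior 2. Quantile normalization gives every array the same distribution, but the spread over all probe sets differed by group. The SD was 0.53 to 0.54 with FoxF1, 0.21 to 0.24 with NFI-C2 and 0.17 to 0.18 in wild type cells. Under it the share of all genes called went from 39.9% to 30.8% with FoxF1 and from 21.6% to 26.8% with NFI-C2. Calls lost under it cannot be told apart from an effect of that rescaling. Same-numbered arrays of the groups correlated at 0.00027 to 0.182 over 9 pairs, 2 of them over 0.1. Of 18 combinations 12 correlated best with their own number, so a weak link between same-numbered arrays is possible. The main fit did not use the numbers as a pairing. A replicate block gave 19 higher and 16 lower with FoxF1, 7 and 9 with NFI-C2, and 17 and 15 between the lines. It ended 5 calls, those of Kcng4 with FoxF1, of Kcnip3, Kcnn1 and P2rx4 with NFI-C2, and of Cacna1b between the lines. Scan dates as a block were not run because the sheets used here give none.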
